A study of Mus musculus with 35 samples.

Results

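The clustered protocadherin genes encode neural cell adhesion proteins and lie next to each other on mouse chromosome 18 in an alpha, a beta and a gamma cluster. The members were all protein-coding genes of the GRCm38 RefSeq annotation whose symbol starts with Pcdha, Pcdhb or Pcdhg, followed by an optional letter a, b or c and a number. This rule used no measured value and found 57 of the 21631 protein-coding genes on the autosomes and the X chromosome, 14 in the alpha, 22 in the beta and 21 in the gamma cluster. Pcdhgb8, which the annotation lists as a transcribed pseudogene, is no member.

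The study mapped 3 histone modifications during oocyte formation from mouse embryonic stem cells in culture and in oocytes from animals. It used CATCH-seq, which precipitates native, nuclease-cut chromatin from few cells with the help of carrier DNA. The 35 libraries comprised H3K4me3, H3K27me3 and H3K36me3 precipitates and 9 inputs. The files read here were 13 peak lists, 1 for each stage and mark.

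The culture stages were oogonia-like cells at c7 and oocyte-like cells at c13 and at c34, all made from the H18 embryonic stem cell line with the Prdm1-mVenus and Dppa3-ECFP reporters. The oocytes from animals were E18.5 oocytes carrying the same pair of reporters and germinal vesicle (GV) oocytes of BDF1 mice, a hybrid of C57BL/6 and DBA/2. Every group has the genotype label WT. H3K4me3 was profiled in 4 c13, 2 c34, 2 E18.5 and 1 GV libraries. For H3K27me3 there were 2 libraries each of c7, c13, c34 and E18.5 and 1 of GV, and for H3K36me3 2 each of c13, c34, E18.5 and GV. All culture stages come from 1 cell line, and GV oocytes are the BDF1 group. Strain therefore cannot be told apart from stage in GV against E18.5 oocytes, nor from culture in c34 cells against GV oocytes. How many animals or cultures a library pools is not given in the sources used here.

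In the alpha and gamma clusters, each gene consists of its own variable exon with its own promoter, spliced to constant exons that the whole cluster shares at its far end. Beta genes are short genes without shared constant exons. Neurons transcribe a few of these promoters per cell, which gives each cell its own set of adhesion proteins, while the C-type genes at the ends of the alpha and gamma clusters are known for a more uniform use. H3K4me3 marks active and poised promoters, H3K27me3 is laid down by Polycomb repressive complex 2, and H3K36me3 follows transcribing polymerase over gene bodies and guides DNA methylation in growing oocytes.

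The alpha cluster spans 258.6 kb (chr18:36930285-37188897), the beta cluster 256.4 kb (chr18:37264998-37521419) and the gamma cluster 180.1 kb (chr18:37661775-37841873) on GRCm38. Neighbouring starts lie a median of 7.44 kb apart in the alpha, 7.84 kb in the beta and 5.37 kb in the gamma cluster. All gamma genes end within 10 bp of each other and all alpha genes within 1240 bp, so their annotated bodies overlap in the shared part. Peak edges lie on multiples of 1 kb in the H3K4me3 lists and of 10 kb in the H3K27me3 and H3K36me3 lists, and the starts of the 14 alpha, 22 beta and 21 gamma genes fall into only 11, 17 and 13 different 10 kb steps of that grid. Calls of neighbouring genes for H3K27me3 and H3K36me3 therefore share peaks and are not independent.

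For H3K4me3 and H3K27me3, a member counted as marked if a peak of at least 1 bp lay within 1 kb of its start. For H3K36me3 it counted as marked if 20% or more of its annotated body lay in peaks. Beside the first count of members for each list and comparison stands the percent of background genes that met the same rule. For the starts these are 17274 genes of other chromosomes with a known strand, and for the bodies all 21574 other protein-coding genes. If the lower coordinate of each of these 21574 genes is read in place of the start, the H3K4me3 background is 51.3% in c13, 43.6% in c34, 38.6% in E18.5 and 51.9% in GV, and that of H3K27me3 moves by under 1 percentage point. Counts under a peak-width cutoff, a window of 5 kb or another body share have no background share beside them. Whether other genes lose or gain calls alike under these settings is not shown. Each stage and mark has 1 peak list without replicate lists, scores or read depth, so there is no spread between replicates and no test, and every difference below compares deposited lists. The lists held 25641 to 37312 peaks for H3K4me3, 2956 to 5438 for H3K27me3 and 1170 to 6186 for H3K36me3. Read depth is unknown, and its part in the differences between lists was not tested.

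The oocyte and germ cell genes read were Ddx4, Dazl, Sycp3, Figla, Nobox, Zp3 and Bmp15. H3K4me3 lay at the starts of 6 of these 7 in c13, 7 in c34, 5 in E18.5 and 7 in GV oocytes. Of background genes, 68.8%, 63.3%, 58.8% and 71.2% were marked in the same order, so these few genes cannot check the labels. Bmp15 lacked it in c13 and E18.5, and Zp3 in E18.5. Of 3 granulosa cell genes, Fshr lacked H3K4me3 at all 4 stages. Foxl2 carried it at all 4 and Amhr2 in c13 and GV. H3K27me3 lay beside H3K4me3 at Foxl2 at all 4 stages, at Amhr2, Dazl, Ddx4, Figla and Zp3 in c13, at Dazl in c34 and GV and at Nobox in E18.5. These marks do not show whether a gene is expressed.

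**Figure D1:**
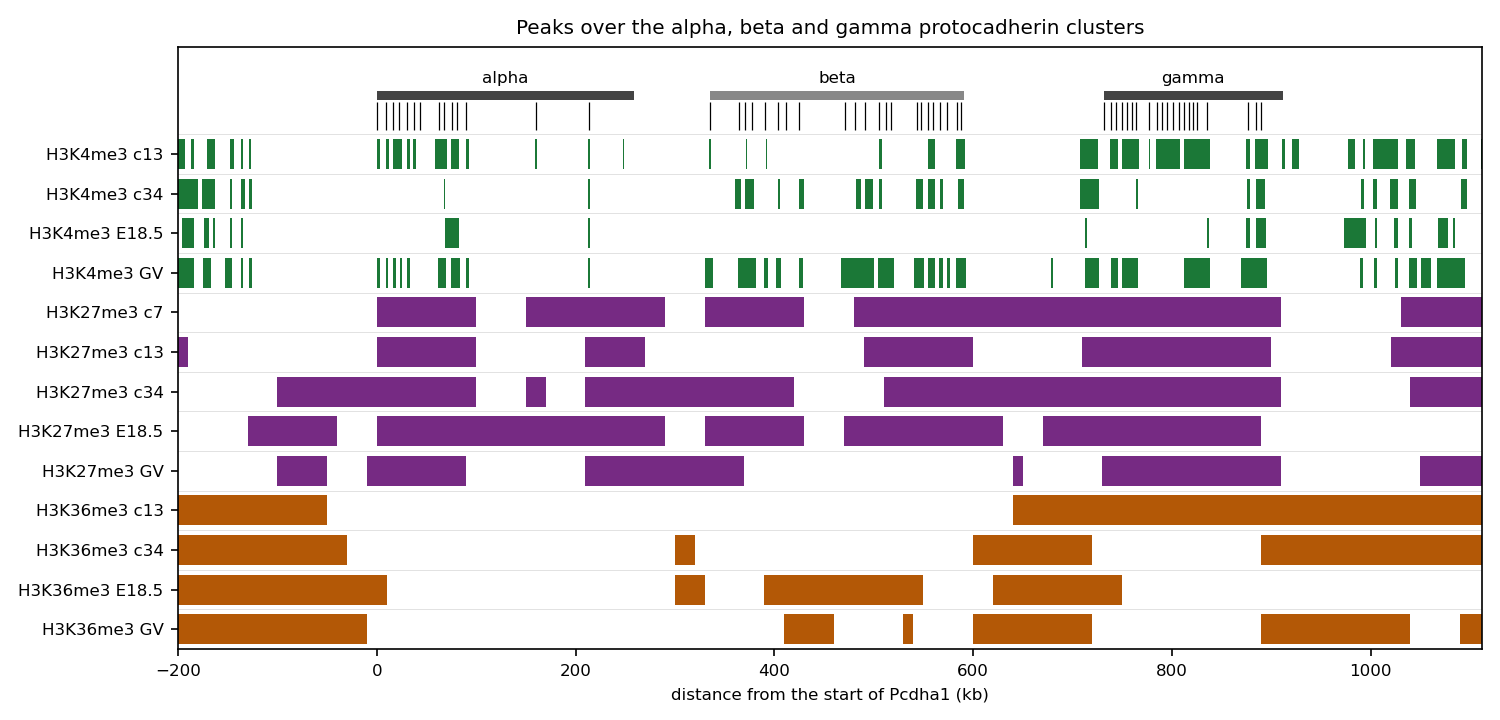
Peaks of the 13 lists along the 3 clusters, with 200 kb on each side. The x axis gives the distance from the start of Pcdha1 in kb, each row is 1 list, horizontal bars at the top are the clusters and ticks are gene starts. Most H3K4me3 peaks within the clusters hold a gene start. The widest lie over gamma genes in c13 and over beta and gamma genes in GV. H3K27me3 lies over the gamma cluster and the first alpha genes in all 5 lists, and H3K36me3 peaks leave the alpha cluster almost free.

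At the alpha genes, H3K27me3 marked 13 or 14 of 14 starts at every stage, and H3K4me3 differed between stages. H3K4me3 marked 13 of 14 alpha genes in c13 cells, where 68.8% of background genes were marked. In c34 cells it marked 2 of 14, Pcdha9 and Pcdhac2 (63.3%). In E18.5 oocytes it marked 3 of 14, Pcdha10, Pcdha11 and Pcdhac2 (58.8%). In GV oocytes it marked 11 of 14, all but Pcdha6, Pcdha7 and Pcdhac1 (71.2%). The marked share of alpha genes thus lay above the background in c13, near it in GV and far below it in c34 and E18.5.

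Most alpha H3K4me3 peaks were short and held a lone gene start. Pcdha1, the first gene of the cluster, had a 3 kb peak at chr18:36930001-36933000 in both c13 and GV, and its nearest peak lay 67.7 kb away in c34 and 68.7 kb away in E18.5. The 11 alpha peaks of c13 had a median width of 3 kb, against 4 kb in the whole list, and the 9 of GV a median of 3 kb, against 11 kb in the whole list. The alpha peaks of GV were thus narrow for a list in which peaks are wide, and without peaks under the list's median width H3K4me3 marked 0 alpha genes in GV, 0 in c34 and 6 in c13. No background share is given for that cutoff. The stretches from 1 kb before to 3 kb after a start make up 21.6% of the alpha span and held 81.1% of the H3K4me3-covered bases there in c13 and 91.2% in GV.

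The few alpha genes marked in c34 and E18.5 differed from each other, except Pcdhac2. Pcdha9 in c34 had a peak of 1 kb that began 0.121 kb after the start, so its start base was not covered. Pcdha10 and Pcdha11 in E18.5 lay under 1 peak of 14 kb at chr18:36999001-37013000. That peak began 1.12 kb from the start of Pcdha9, which just missed the call in this list.

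H3K27me3 marked all 14 alpha genes in c7 cells, where 40.7% of background genes were marked. It marked 13 in c13 (55.6%), 14 in c34 (38.2%), 14 in E18.5 (35.0%) and 13 in GV (24.1%). The exception in c13 and GV was Pcdhac1, whose start lay 49.9 kb from the nearest peak in both lists. At all 5 stages 13 of 14 alpha genes were marked, against 9.55% of background genes. The peak over Pcdha1 began 0.284 kb before its start in c7, c13 and E18.5, 10.3 kb before it in GV and 100 kb before it in c34. It was 100 kb wide in c7, c13 and GV, 200 kb in c34 and 290 kb in E18.5, where it spanned the whole cluster. H3K27me3 peaks covered 80.7% of the alpha span in c7, 57.5% in c13, 65.2% in c34, 100% in E18.5 and 53.6% in GV. Without peaks narrower than the median of their list, H3K27me3 marked 2 alpha genes in c7, 0 in c13 and 1 in GV. In GV the peak over Pcdha1 ended 0.23 kb before the start of Pcdha12, which was called through the 1 kb window alone.

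H3K36me3 marked 0 of 14 alpha genes in every list, against a background of 67.9% in c13, 63.6% in c34, 22.1% in E18.5 and 62.3% in GV. The last H3K36me3 peak upstream ended 50.3 kb before Pcdha1 in c13, 30.3 kb in c34 and 10.3 kb in GV. In E18.5 the upstream peak reached 36940000 and covered 3.78% of the body of Pcdha1 and 0.32% of that of Pcdha2.

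**Figure D2:**
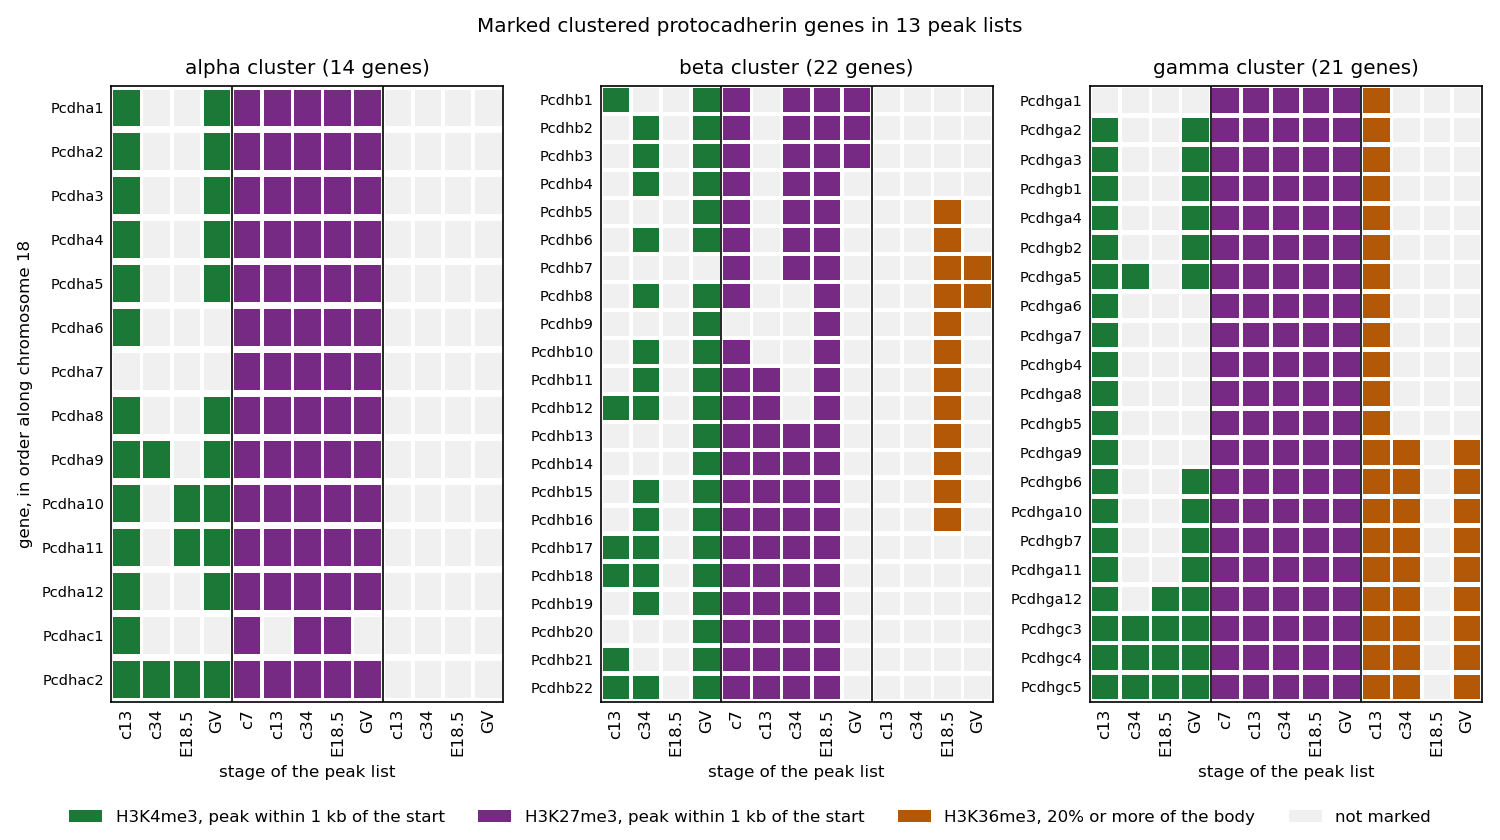
Calls of the 57 genes in the 13 lists. Rows are genes in order along the chromosome in a panel per cluster, columns are stages grouped by mark, and a filled box is a marked gene. H3K27me3 fills the alpha and gamma panels almost completely at all 5 stages, the beta panel is filled in blocks of neighbouring genes, and H3K4me3 fills different clusters at different stages.

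The beta genes had other calls than the alpha genes. H3K4me3 marked 6 of 22 beta genes in c13, 14 in c34, 0 in E18.5 and 21 in GV, against the same backgrounds of 68.8%, 63.3%, 58.8% and 71.2%. As shares these were 27.3%, 63.6%, 0% and 95.5%. The c34 share thus equalled its background, the GV share lay above it, and those of c13 and E18.5 lay below. In c13 these were Pcdhb1, Pcdhb12, Pcdhb17, Pcdhb18, Pcdhb21 and Pcdhb22. In c34 they were Pcdhb2, Pcdhb3, Pcdhb4, Pcdhb6, Pcdhb8, Pcdhb10, Pcdhb11, Pcdhb12, Pcdhb15 to Pcdhb19 and Pcdhb22. In GV only Pcdhb7 was unmarked. In E18.5 no H3K4me3 peak touched the 256.4 kb of the cluster, and for Pcdhb9 the nearest peak lay 242 kb away.

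Beta H3K4me3 peaks were wider than alpha ones in the late stages. Their median width was 2.5 kb over 6 peaks in c13, 6 kb over 11 in c34 and 7.5 kb over 12 in GV. The widest beta peak, 33 kb in GV at chr18:37397001-37430000, covered the starts of Pcdhb9, Pcdhb10 and Pcdhb11. Without peaks under the list's median width, 9 beta genes stayed marked in GV, and with a window of 5 kb 11 were marked in c13. Peaks covered 8.35% of the beta span in c13, 23.8% in c34, 0% in E18.5 and 45.4% in GV. On chromosome 18 up to the last peak of any list, the covered share was 7.54%, 10.8%, 4.37% and 28.9% in the same order.

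H3K27me3 marked 21 of 22 beta genes in c7, 12 in c13, 17 in c34, 22 in E18.5 and 3 in GV, against the same backgrounds of 40.7%, 55.6%, 38.2%, 35.0% and 24.1%. The c13 share, 54.5%, was close to its background, and the GV share, 13.6%, lay below it. The marked genes were blocks of neighbours. In c7 only Pcdhb9 was unmarked, with its start 9.15 kb from the nearest peak. In c13 a peak of 110 kb at chr18:37420001-37530000 covered the starts of Pcdhb11 to Pcdhb22. In c34 Pcdhb1 to Pcdhb7 lay under a peak of 210 kb and Pcdhb13 to Pcdhb22 under a peak of 400 kb that ran on through the gamma cluster, with Pcdhb8 to Pcdhb12 in the gap between them. In GV the 3 marked genes were Pcdhb1, Pcdhb2 and Pcdhb3, and the peak ended 0.799 kb before the start of Pcdhb3. Without peaks under the list's median width, 13 beta genes were marked in c7, 0 in c13 and 14 in E18.5. No beta gene was marked at all 5 stages, and Pcdhb9 was marked in E18.5 only.

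H3K36me3 marked 12 of 22 beta genes in E18.5 (background 22.1%), 2 in GV (62.3%) and none in c13 (67.9%) or c34 (63.6%). The 12 were Pcdhb5 to Pcdhb16, all under 1 peak of 160 kb at chr18:37320001-37480000. In 11 of them the peak covered the whole body, and in Pcdhb16 42.4% of it. In GV the marked genes were Pcdhb7 and Pcdhb8, wholly covered by a peak of 50 kb, which is under the median width of its list. Of these 2, Pcdhb8 carried H3K4me3 in GV, while Pcdhb7 had no H3K4me3 call at any of the 4 stages.

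**Figure D3:**
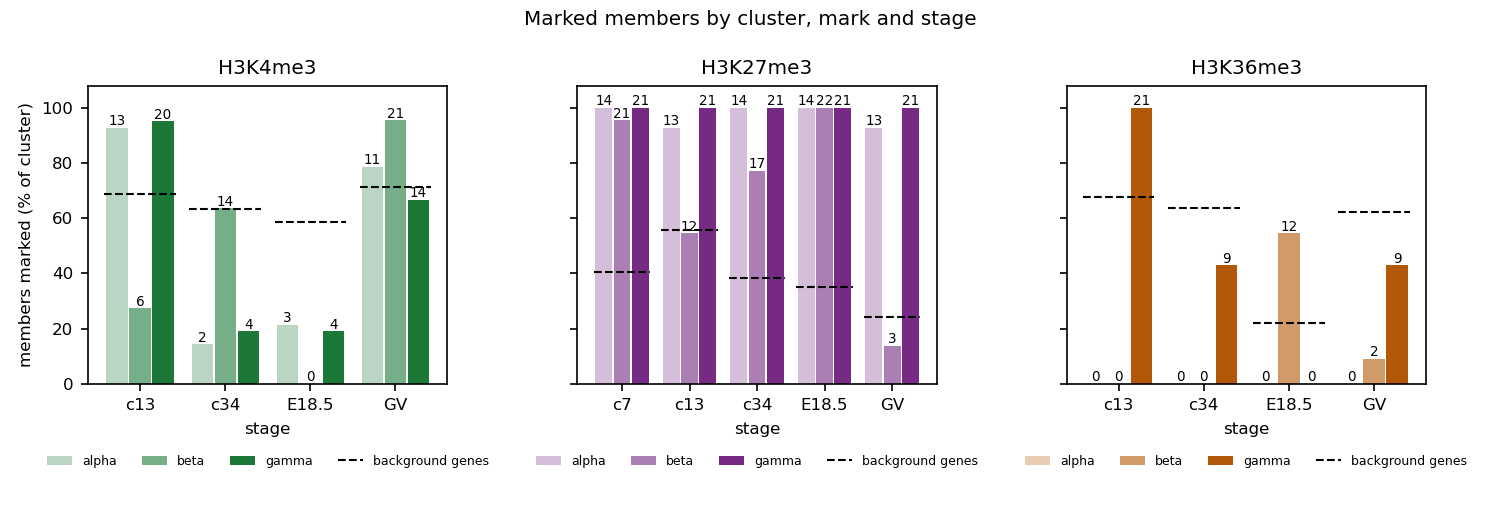
Share of marked genes by cluster, mark and stage. Bars give the percent of the 14 alpha, 22 beta or 21 gamma genes that are marked, labels on them the number of genes, and dashed lines the percent of background genes that meet the same rule. The beta bar is the lowest of the 3 for H3K4me3 in c13 and E18.5 and the highest in c34 and GV. In c34 it stands at the dashed line.

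The gamma genes carried H3K27me3 without exception. It marked 21 of 21 in each of the 5 lists, against 9.55% of background genes marked at all 5 stages. In each list they lay under 1 peak, 430 kb wide in c7, 190 kb in c13, 400 kb in c34, 220 kb in E18.5 and 180 kb in GV. Peaks covered 99% of the gamma span in c7, c34 and GV, 93.4% in c13 and 87.9% in E18.5. The peak over Pcdhgc3 ended 1.87 kb before the last gamma end in c7, c34 and GV, 11.9 kb before it in c13 and 21.9 kb before it in E18.5. In E18.5 it covered 455 bp of the first 3 kb of Pcdhgc5, the last gene, and all 3 kb of the other 20.

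H3K4me3 marked 20 of 21 gamma genes in c13, 4 in c34, 4 in E18.5 and 14 in GV, against 68.8%, 63.3%, 58.8% and 71.2% of background genes. The GV share, 66.7%, was near its background. In c13 only Pcdhga1 was unmarked. In c34 the 4, of which 2 were left without peaks under the list's median width, were Pcdhga5, Pcdhgc3, Pcdhgc4 and Pcdhgc5, and in E18.5 they were Pcdhga12, Pcdhgc3, Pcdhgc4 and Pcdhgc5. In GV the unmarked genes were Pcdhga1 and the run of 6 neighbours Pcdhga6, Pcdhga7, Pcdhgb4, Pcdhga8, Pcdhgb5 and Pcdhga9. In c13, 5 of these 6 lay under 1 peak of 24 kb and Pcdhga6 under a peak of 1 kb.

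Gamma H3K4me3 peaks often spanned several starts. In c13, 5 of 8 peaks held more than 1 start, and in GV all 4 did. The peak over Pcdhgb6, Pcdhga10, Pcdhgb7, Pcdhga11 and Pcdhga12 had the same edges in c13 and GV, chr18:37742001-37769000. The median width was 10.5 kb in c13, 3 kb in c34, 4 kb in E18.5 and 21 kb in GV, against 4, 5, 4 and 11 kb in the whole lists. H3K4me3 covered 52.7% of the gamma span in c13 and 42.2% in GV, but 7.77% in c34 and 8.88% in E18.5.

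H3K36me3 marked 21 of 21 gamma genes in c13 (background 67.9%), 9 in c34 (63.6%), 0 in E18.5 (22.1%) and 9 in GV (62.3%). In c13 the cluster lay inside a peak of 2350 kb, and no gamma gene was marked when peaks of 1 Mb or more were left out. In c34 and GV the peak began at 37820001, 0.455 kb after the start of Pcdhgc5, and ran over the shared constant end into Diaph1, an actin-nucleating formin. It was 290 kb wide in c34 and 150 kb in GV. Because the covered stretch was the same for every gamma gene, its share of the body depended on gene length. It was 12.1% for Pcdhga1, 61.7% for Pcdhgc3, 81.6% for Pcdhgc4 and 98% for Pcdhgc5 in both lists. The 9 marked genes were those from Pcdhga9 on, with Pcdhga9 at 20.8% and its neighbour Pcdhgb5 at 19.7%. With a share of 50% in place of 20%, the 3 genes Pcdhgc3, Pcdhgc4 and Pcdhgc5 were marked in both lists. In E18.5 a peak from the beta side covered 10.1% of Pcdhga1, 6.4% of Pcdhga2 and 3.38% of Pcdhga3.

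Among the 5 C-type genes, Pcdhac2, Pcdhgc3, Pcdhgc4 and Pcdhgc5 were the only members with H3K4me3 at all 4 stages. These 4 of 57 members are a far smaller share than the 52.5% of background genes. All 4 also carried H3K27me3 at all 5 stages, a trait of 34 of the 57 members. At Pcdhac2 the H3K4me3 peak was the same 2 kb, chr18:37143001-37145000, in all 4 lists. At Pcdhgc3 it was 4 kb wide in c13, 3 kb in c34, 4 kb in E18.5 and 26 kb in GV. Pcdhgc4 and Pcdhgc5 shared a peak of 13 kb in c13, 9 kb in c34, 10 kb in E18.5 and the same 26 kb in GV. Pcdhac1 differed from the other 4, with H3K4me3 in c13 only and H3K27me3 in c7, c34 and E18.5 only.

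At the other end, Pcdha7, Pcdhb7 and Pcdhga1 had no H3K4me3 call at any stage. For Pcdha7 the nearest peak lay 3.81 kb away in c13, 24.2 kb in c34, 25.2 kb in E18.5 and 10.8 kb in GV. For Pcdhb7 it lay 18.7 kb away in c13, 5.7 kb in c34, 197 kb in E18.5 and 4.7 kb in GV. For Pcdhga1 the distances were 5.78, 4.78, 16.8 and 4.78 kb in the same order. Of the other members, 13 were marked at 1 stage, 28 at 2 and 9 at 3.

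The comparison of c34 oocyte-like cells with GV oocytes asks how the end of the culture compares with oocytes from animals. All 20 members with H3K4me3 in c34 were marked in GV too, and 26 more were marked in GV alone. Marked in GV and not in c34 were 9 of 14 alpha, 7 of 22 beta and 10 of 21 gamma genes, against 10.9% of background genes. Marked in c34 and not in GV were 0 members, against 3.05%. H3K27me3 went the other way. It marked 14 beta genes and Pcdhac1 in c34 and not in GV (16.8% of background genes), and no member in GV and not in c34 (2.67%). The 14 were Pcdhb4 to Pcdhb7 and Pcdhb13 to Pcdhb22. For H3K36me3 the same 9 gamma genes were marked in both lists, and Pcdhb7 and Pcdhb8 in GV and not in c34 (5.24%), with 0 in c34 and not in GV (6.48%). Without peaks under the median width of their list, 5 kb in c34 and 11 kb in GV, H3K4me3 marked 0 alpha genes in both lists. It marked 11 beta genes in c34 against 9 in GV, the opposite direction, but under these unequal cutoffs. On that setting H3K36me3 marked 0 beta genes in both.

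Between c13 oocyte-like cells and E18.5 oocytes, H3K4me3 was called at more members in culture. Marked in c13 and not in E18.5 were 10 of 14 alpha, 6 of 22 beta and 16 of 21 gamma genes, against 10.6% of background genes. All 7 members marked in E18.5 were marked in c13, so the opposite count was 0 (0.625%). H3K27me3 was missing in c13 at Pcdhac1 and Pcdhb1 to Pcdhb10, which carried it in E18.5 (9.50%), with 0 members the other way (30.1%). H3K36me3 calls did not meet. They took all 21 gamma genes in c13 and not in E18.5 (55.0%), and Pcdhb5 to Pcdhb16 in E18.5 and not in c13 (9.21%). Without peaks of 1 Mb or more, H3K36me3 marked 0 gamma genes in both lists.

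Within the culture, c34 against c13, H3K4me3 was called at fewer alpha and gamma genes and at more beta genes. Marked in c13 and not in c34 were 11 alpha, 2 beta and 16 gamma genes, against 9.20% of background genes. Marked in c34 and not in c13 were 10 beta genes and no alpha or gamma gene (3.76%). The 2 beta genes marked in c13 alone were Pcdhb1 and Pcdhb21. H3K27me3 was called in c34 and not in c13 at Pcdhac1 and Pcdhb1 to Pcdhb7 (7.26%), and in c13 and not in c34 at Pcdhb11 and Pcdhb12 (24.6%). H3K36me3 was called in c13 and not in c34 at 12 gamma genes (15.5%) and at no member the other way (11.2%). Without peaks of 1 Mb or more the direction turned, with 9 gamma genes marked in c34 and 0 in c13. The c13 list contributes to this and to the comparison with E18.5, as the c34 list does to this and to that with GV.

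In animals, GV against E18.5 oocytes, H3K4me3 was called in GV alone at 8 of 14 alpha, 21 of 22 beta and 10 of 21 gamma genes, against 16.5% of background genes, and in E18.5 alone at 0 members (4.16%). H3K27me3 was called in E18.5 and not in GV at 19 of 22 beta genes and Pcdhac1 (21.3%), and in GV and not in E18.5 at 0 members (10.4%). H3K36me3 was called in GV and not in E18.5 at 9 gamma genes (48.5%) and in E18.5 and not in GV at 10 beta genes (8.28%). Without peaks under the median width of their list, 11 kb in GV and 4 kb in E18.5, H3K4me3 marked 0 alpha genes in GV and 2 in E18.5. This is the opposite direction, but under unequal cutoffs. By a peak within 1 kb of the start, H3K36me3 marked 1 gamma gene in GV and 4 in E18.5, also the opposite direction.

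The c7 stage was profiled for H3K27me3 alone. In c13 against c7 cells, 0 members were called in c13 alone (23.6% of background genes), while Pcdhac1, Pcdhb1 to Pcdhb8 and Pcdhb10 were called in c7 alone (8.73%). In c7 cells against E18.5 oocytes the calls differed at Pcdhb9, called in E18.5 alone (7.62%), and 0 members were called in c7 alone (13.3%).

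**Figure D4:**
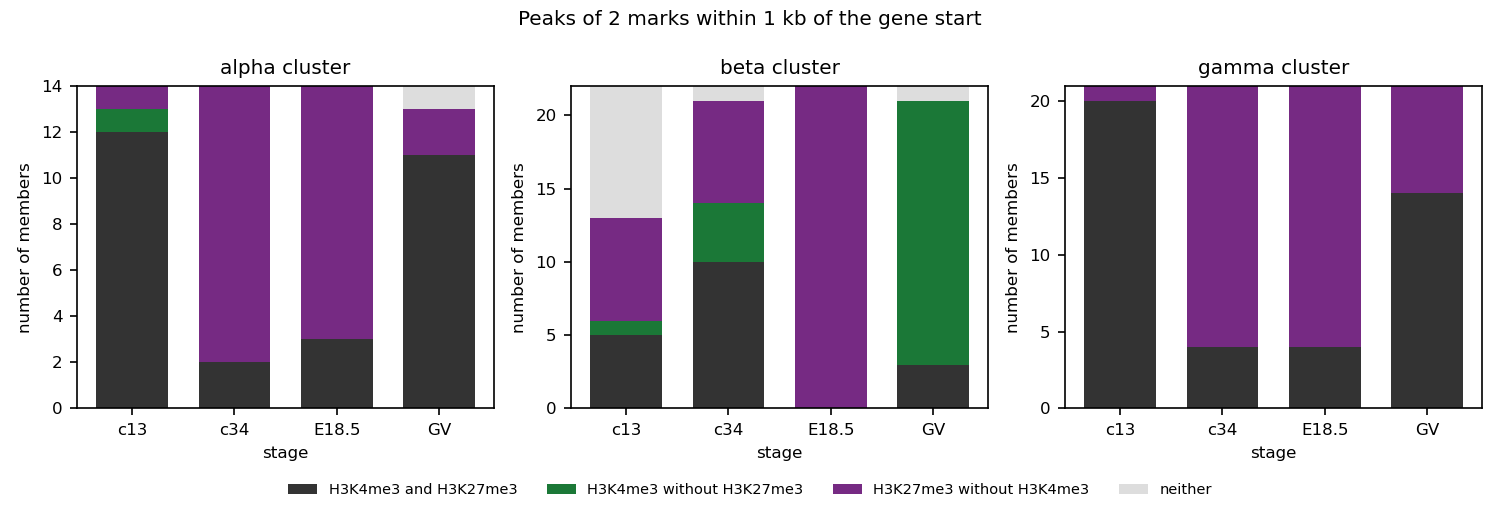
Members with peaks of H3K4me3 and H3K27me3 within 1 kb of the start, by cluster and stage. Stacked bars give the number of genes with both marks, H3K4me3 alone, H3K27me3 alone or neither, and add up to 14, 22 and 21 genes. In GV, H3K4me3 without H3K27me3 takes 18 of 22 beta genes and no alpha or gamma gene.

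The clusters in which both promoter marks lay at most starts differed by stage. These were the alpha and gamma clusters in c13 and GV, and no cluster in c34 or E18.5. Both marks lay at 12 of 14 alpha, 5 of 22 beta and 20 of 21 gamma starts in c13, where 43.7% of background genes had both. In c34 both lay at 2 of 14 alpha, 10 of 22 beta and 4 of 21 gamma starts (19.9%), so the beta share lay above the background and the alpha and gamma shares did not. In E18.5 they lay at 3 alpha, 0 beta and 4 gamma starts (15.9%). In GV they lay at 11 alpha, 3 beta and 14 gamma starts (11.9%). A start listed in both comes from separate libraries, so whether the marks sit on the same chromatin in the same cell was not tested.

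H3K4me3 without H3K27me3 was rare outside the beta cluster. It was called at Pcdhac1 and Pcdhb1 in c13 (25.1% of background genes), at 4 beta genes in c34 (43.5%), at 0 members in E18.5 (43.0%) and at 18 beta genes in GV (59.3%). H3K27me3 without H3K4me3 was called at 1 alpha, 7 beta and 1 gamma gene in c13 (11.9%), and at 12, 7 and 17 in c34 (18.4%). In E18.5 it was called at 11 alpha, 22 beta and 17 gamma genes (19.2%), and in GV at 2, 0 and 7 (12.2%). Neither mark was called at the 9 genes Pcdhb2 to Pcdhb10 in c13 (19.3%), at Pcdhb9 in c34 (18.3%), at no member in E18.5 (22.0%), and at Pcdhac1 and Pcdhb7 in GV (16.6%).

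The position of the H3K4me3 peaks around the starts also differed between alpha and beta genes in GV. No share of background genes is given at these positions, so whether other genes look alike is not shown. In GV, 71.4% of alpha genes had the start base inside an H3K4me3 peak, 78.6% the base 1 kb after it and 21.4% the base 3 kb after it. Of the beta genes, 95.5% had the start and the base 2.5 kb after it inside a peak, and 54.5% the base 4 kb after it, which for most lies beyond the gene end at a median gene length of 3.42 kb. In c34 the beta share was 45.5% at the start and 68.2% at 1.5 and 2 kb after it. For H3K27me3 such positions could not be resolved at most starts. Its lists lie on a 10 kb grid, wider than the median distance between starts in each cluster, so the marks cannot be compared here.

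**Figure D5:**
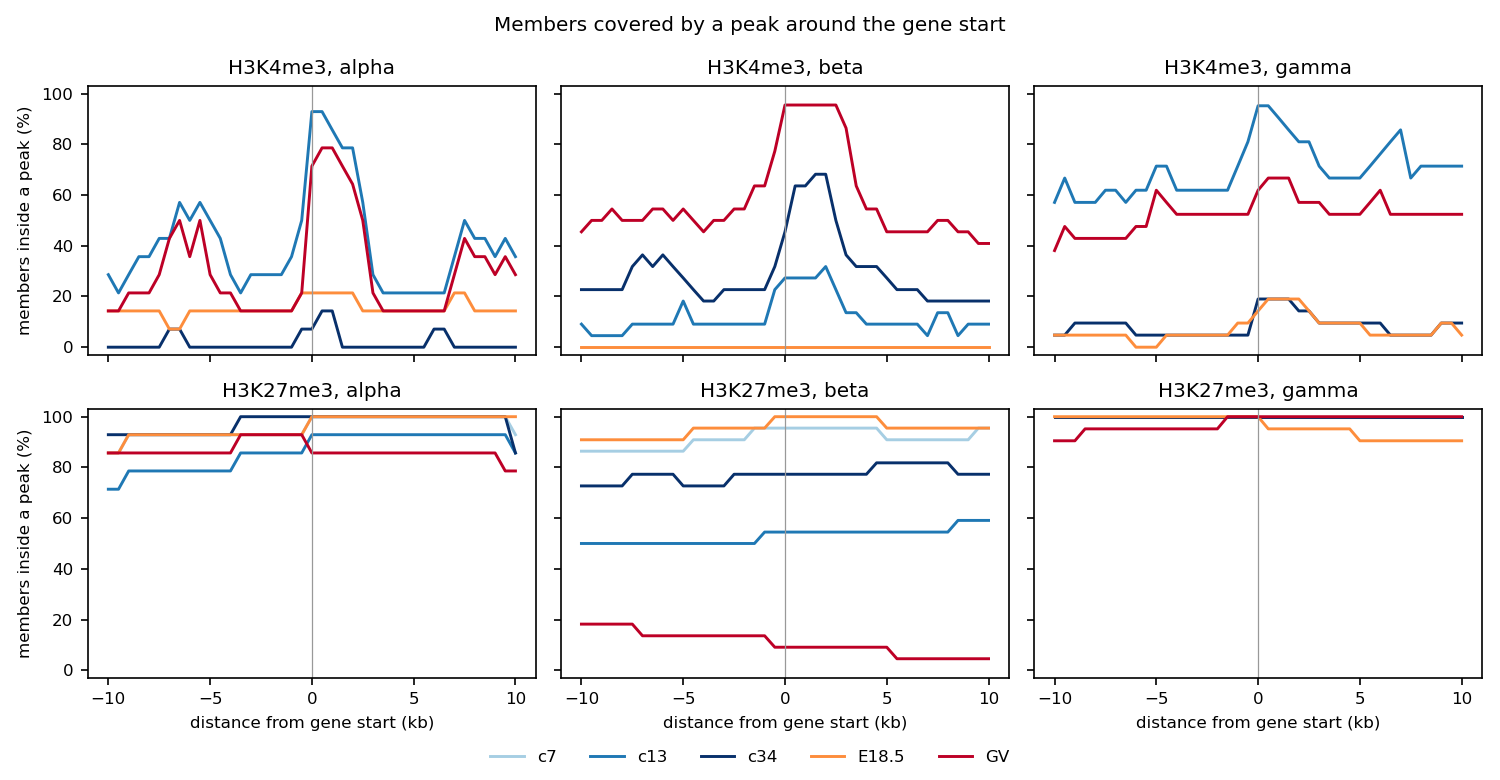
Percent of members inside a peak by distance from the gene start, upper row H3K4me3 and lower row H3K27me3, in a panel per cluster with a line per stage. The x axis gives the distance from the start in kb, positive towards the higher coordinate. H3K4me3 lines of c13 and GV stand up over alpha starts and those of GV and c34 over beta starts. H3K27me3 lines are nearly flat, from lists on a 10 kb grid.

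The genes around the clusters were described by the same rules, with either gene end counted where the tables give no strand. Under the either-end rule the H3K4me3 background was 71.7% in c13, 66.8% in c34, 61.4% in E18.5 and 74.8% in GV. For H3K27me3 it was 45.9% in c7, 60.2% in c13, 43.6% in c34, 38.9% in E18.5 and 28.2% in GV. Of 18 protein-coding genes within 200 kb, among them the histidyl-tRNA synthetase genes Hars and Hars2 on the alpha side, H3K4me3 marked 18 in c13, 15 in c34, 14 in E18.5 and 15 in GV. H3K27me3 marked 8 in c7, 9 in c13, 7 in c34, 6 in E18.5 and 4 in GV, which is near or below these shares, and the marked genes included Gm37013, Gm38666 and Gm38667 at every stage. Those 3 genes start beside alpha genes and end with the gamma cluster, and they are not members. Taf7, a subunit of the general transcription factor TFIID that lies between the beta and gamma clusters, carried H3K4me3 and H3K36me3 at all 4 stages profiled for them and H3K27me3 at all but GV. H3K36me3 marked 18 of the 18 neighbours in c13, 15 in c34, 13 in E18.5 and 17 in GV, against 67.9%, 63.6%, 22.1% and 62.3% of background genes.

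The genes of the next lists were read at the start where a strand is known (9 of the 12 non-clustered protocadherins and 12 of the 16 regulators) and at either end otherwise. Their background by the start is 68.8%, 63.3%, 58.8% and 71.2% for H3K4me3 in c13, c34, E18.5 and GV, and 40.7%, 55.6%, 38.2%, 35.0% and 24.1% for H3K27me3 in c7, c13, c34, E18.5 and GV. That for H3K36me3 bodies is as for the neighbours. The 12 non-clustered protocadherins, which lie on 6 chromosomes, carried H3K4me3 in 12, 11, 6 and 11 cases in c13, c34, E18.5 and GV. H3K27me3 marked 12 in c7, 7 in c13, 7 in c34, 8 in E18.5 and 6 in GV, of which the c13 count is close to its background. H3K36me3 marked 3 in c13, 2 in c34, 1 in E18.5 and 2 in GV. Pcdh19 was marked by H3K4me3 and H3K27me3 at every stage profiled. Of 16 genes known to regulate or silence the clusters, among them Ctcf, the cohesin subunits and Smchd1, H3K4me3 marked 14 at each of the 4 stages. H3K27me3 marked 4 of them in c7, 8 in c13, 4 in c34, 4 in E18.5 and 1 in GV. H3K36me3 marked 13 in c13, 16 in c34, 5 in E18.5 and 14 in GV. Ctcf and Smchd1 carried H3K4me3 at all 4 stages and H3K27me3 at none.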

How the data were processed

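CATCH-seq gave H3K4me3, H3K27me3 and H3K36me3 libraries, and inputs that have no list and were not used here. The deposited values are peak positions in base pairs, a unit other than counts, with no score, p-value or depth. Per the file headers the columns are chromosome, start and end. By their values, starts count from 0 and ends are inclusive; coordinates here count from 1. The submitters' processing notes name the peak callers MACS2 2.1.1 and SICER 0.0.41, the aligner Bowtie2 2.3.4.1, the trimmers cutadapt 1.9.1 and Trim Galore 0.4.1, and the builds mm10 and GRCm38.p3. The sources used here do not say which caller, threshold, input or pool of libraries made a list. A deeper library or a looser threshold lengthens a list, and the grid limits how narrow or close peaks can be.

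Overlaps were computed with Python 3.11.15, numpy 2.4.6 and pandas 2.3.3 and checked on simulated peaks. Genes are those of the RefSeq table of GRCm38.p6. That table and the promoter table give no strand for chromosome 18, so a member's start is its lower coordinate, the end away from the shared constant exons. Strand for the background came from the promoter table. No sequence is printed. Groups follow the labels, and no test was made because each stage and mark has 1 list.

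Named are the C-type genes, the first and last gene of each cluster, members whose call differs from most of their cluster or between compared stages, all genes within 200 kb, 12 non-clustered protocadherins and 16 regulators. The members, lists and rules were chosen with earlier results of these data known. The 7 germ cell and 3 granulosa cell genes were added after the peak lists were seen, and are those of a longer list with a known strand. Up to 8 genes per list and cluster were to be named; where whole blocks share a call, the block is named. Alternatives were the start base alone, a window of 5 kb, either gene end, other body shares, and lists without peaks of 1 Mb or more or without peaks under the list's median width.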

Additional observations from a re-analysis of the deposited data

Results flagged for a closer look

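In 5 counts the later minus the earlier stage had opposite signs in culture (c34 minus c13) and in animals (GV minus E18.5). With 1 list per stage and mark, these differences between differences were not tested. For H3K4me3 the number of marked genes differed by -11 in culture and 8 in animals for the alpha cluster, and by -16 and 10 for the gamma cluster. Of background genes, 3.76% were marked in c34 and not in c13, and 9.20% in c13 and not in c34. In animals 16.5% were marked in GV and not in E18.5 and 4.16% the other way. Background genes thus had the same opposite signs for H3K4me3. Without peaks under the median width of their list (11 kb in GV, 4 kb in E18.5), the alpha difference was -6 in culture and -2 in animals. The opposite signs were then lost, under unequal cutoffs. For H3K27me3 the number of marked genes differed by 1 in culture and -1 in animals for the alpha cluster, which is Pcdhac1 both times and is 0 in both if either gene end is read, and by 5 and -19 for the beta cluster. Of background genes, 7.26% were marked in c34 and not in c13 (24.6% the other way). In GV and not in E18.5 it was 10.4% (21.3% the other way), so fewer were marked at the later stage in both. For H3K36me3 the number of marked genes differed by -12 in culture and 9 in animals for the gamma cluster, where the c13 calls rest on 1 peak of 2350 kb. Background genes again had the same opposite signs. Of them 11.2% were marked in c34 and not in c13 (15.5% the other way), and 48.5% in GV and not in E18.5 (8.28% the other way). Without peaks of 1 Mb or more the gamma difference was 9 in culture and 9 in animals, with any base of the body 0 and 18, and by a peak near the start -20 and -3, so the opposite signs were lost in these settings. With 50% of the body it was -18 and 3, and without peaks under the list's median width -12 and 9, so there the signs stayed opposite.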

How the results depend on the processing

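Each of the 13 counts over all members was taken under 5 alternatives, and 54 of these 65 values stayed within 1.5 times the main count and 11 did not. Of the 195 values by cluster, 170 stayed within that range and 25 did not. Except for either gene end, no background share is given under the alternatives, so whether other genes moved as much is not shown. Without peaks narrower than the median of their list, H3K4me3 marked 13 members in c34 (20 with all peaks) and 21 in GV (46), and no alpha gene in either. This cutoff was unequal between H3K4me3 lists, with 5 kb in c34, 4 kb in E18.5 and 11 kb in GV. On the same setting H3K27me3 marked 36 in c7 (56) and 21 in c13 (46), in c13 gamma genes alone. Without peaks of 1 Mb or more, H3K36me3 marked 0 in c13 (21). H3K36me3 in c34 marked 9 members on the main rule, 3 with 50% of the body, 21 with any base and 1 by a peak within 1 kb of the start. In GV these counts were 11, 5, 23 and 3. Of 210 differences between stages by cluster and alternative, 192 kept their sign, 9 became 0, 5 that were 0 no longer were, and 4 took the opposite sign. The 4 were H3K4me3 without narrow peaks for c34 minus GV in the beta cluster (2, main -7) and GV minus E18.5 in the alpha cluster (-2, main 8), and H3K36me3 in the gamma cluster for c34 minus c13 without peaks of 1 Mb or more (9, main -12) and GV minus E18.5 by the start (-3, main 9). No paired analysis was possible because each stage and mark has 1 peak list and no result comes from a test. Depth is unknown, so no limit on undetected peaks can be given.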
